A study of Mus musculus with 6 samples.

Results

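The 7 genes Sgk1, Fkbp5, Tsc22d3, Zbtb16, Per1, Cdkn1a and Nr3c1 were followed through the glial and vascular cells of the mouse hypothalamus by single-cell RNA sequencing. Glucocorticoids are known to raise the transcription of 6 of them, and Nr3c1 encodes the glucocorticoid receptor itself. The members were the rows of the deposited count table that carry these symbols, and all 7 were found among its 16411 genes. The set was chosen by the CPM of Sgk1 in these data, which stood out in the oligodendrocytes of 1 mouse, mouse 30, and was filled with other steroid-induced genes. The values of Sgk1 are therefore given as a description with no test, and the question was whether the other genes followed Sgk1 over mice and over cell types.

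All labelled samples belonged to the group R50E, with 1 mouse per sample. These were male ob/ob mice, a strain that lacks leptin and is known for obesity, diabetes and raised circulating corticosterone. At 11 weeks of age they received 3 µg of FGF1 R50E, a form of fibroblast growth factor 1 mutated at its integrin-binding site, into a cerebral ventricle, and death followed on day 5. All were housed individually on Altromin chow. Of the 6 labelled mice, 12, 4, 37, 30, 3 and 34, the table held cells of mice 3, 4, 30 and 34, and mice 12 and 37 were not analysed here. There was no second group among the labelled samples, so no effect of the injection was estimated, and no hormone level or hour of death was among the values used here.

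Glucocorticoids such as corticosterone enter cells and bind the receptor encoded by Nr3c1, which is held ready in the cytoplasm by heat shock proteins and the immunophilins bound to them. The loaded receptor moves into the nucleus, where a pair of receptors binds a palindromic DNA sequence, the glucocorticoid response element, and genes nearby are transcribed more. Among the best known of these genes are the kinase gene Sgk1 and the feedback gene Fkbp5, whose protein lowers the receptor's affinity for the hormone. In the brain, oligodendrocytes are known to raise Sgk1 after stress or corticosterone.

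Promoter sequences of the members were taken from RefSeq (GRCm38.p6). Of the 6 members searched, 5 had 1 or more windows of 250 bases before to 50 bases after an annotated transcription start, 14 windows in all. Sgk1 had 6 of the windows, Tsc22d3 had 3, Per1 and Cdkn1a had 2 each and Fkbp5 had 1. Zbtb16 had none, and the window of Nr3c1 was not searched. Each window was searched on both strands for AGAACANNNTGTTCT (the palindromic response element), GNACANNNTGTNC (a relaxed form of it), TGTTCT (its half-site), CACGTG (the E-box through which clock proteins act) and TGACGTCA (the cAMP response element). The complete palindrome was found in 1 of the 14 windows, in Sgk1, and in 3 of all 32851 windows, or 0.00913%. The relaxed form was found in the same window of Sgk1, overlapping the palindrome, and in 0.475% of all windows. Half-sites were found in 4 windows of 2 members, Sgk1 and Tsc22d3, against 19% of all windows. The E-box was found in 3 windows, 1 each of Sgk1, Fkbp5 and Per1, against 7.15% of all windows, and the cAMP response element in none of the 14 windows, against 1.79%. Neither window of Cdkn1a held any of the 5 motifs. A match is a description of the letters and does not show binding.

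The sequences below are 250 bases before 1 start of each of 4 members, 5′ to 3′ on the strand of the gene. They were chosen to show the palindrome, a half-site and E-boxes. Capitals mark the palindrome in Sgk1, the half-site in Tsc22d3 and the E-box in Fkbp5 and Per1.
Sgk1: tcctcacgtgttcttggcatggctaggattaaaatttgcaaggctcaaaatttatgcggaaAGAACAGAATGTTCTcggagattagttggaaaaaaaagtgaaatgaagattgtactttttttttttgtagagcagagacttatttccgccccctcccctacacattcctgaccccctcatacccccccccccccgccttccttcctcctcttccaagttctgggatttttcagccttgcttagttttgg
Tsc22d3: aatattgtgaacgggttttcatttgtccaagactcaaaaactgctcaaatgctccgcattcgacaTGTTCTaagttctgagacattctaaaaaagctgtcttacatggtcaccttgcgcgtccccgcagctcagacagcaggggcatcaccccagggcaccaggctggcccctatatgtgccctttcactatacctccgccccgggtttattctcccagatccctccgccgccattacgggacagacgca
Fkbp5: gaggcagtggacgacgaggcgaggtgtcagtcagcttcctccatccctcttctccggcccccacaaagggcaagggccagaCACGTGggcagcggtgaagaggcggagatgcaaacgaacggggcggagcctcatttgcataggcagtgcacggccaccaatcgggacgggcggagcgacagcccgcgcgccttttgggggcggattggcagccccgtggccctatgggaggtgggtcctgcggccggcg
Per1: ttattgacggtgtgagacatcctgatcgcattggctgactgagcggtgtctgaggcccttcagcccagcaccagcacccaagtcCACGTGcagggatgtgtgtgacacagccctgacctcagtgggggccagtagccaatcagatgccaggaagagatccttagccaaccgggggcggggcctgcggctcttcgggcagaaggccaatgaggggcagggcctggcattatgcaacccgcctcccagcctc

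The stretch of Sgk1 lies at chr10:21993640-21993889 on the plus strand, inside the long annotated gene (chr10:21882184-21999903), and its palindrome covers bases 189 to 175 before the start, in an intron of the longer transcripts. The stretch of Sgk1 also holds an E-box and a half-site that overlap each other near its 5′ end and are not in capitals. The stretch of Tsc22d3 lies at chrX:140600523-140600772 on the minus strand, with the half-site upstream of the gene, 185 to 180 bases before the start. The stretch of Fkbp5 is at chr17:28486150-28486399 on the minus strand and that of Per1 at chr11:69098699-69098948 on the plus strand. Their E-boxes lie 169 to 164 and 166 to 161 bases before the start, and both fall in introns of longer annotated transcripts. The other 2 windows of Sgk1 with a half-site are not printed. Response elements, half-sites or E-boxes further from these starts were not searched, so a window without a match does not show that a member lacks one.

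Counts were of UMIs (unique molecular identifiers, that is, counted molecules), summed per mouse and per cell type as labelled by the authors, and levels are given as CPM, the UMIs of a gene divided by all UMIs of its sum and scaled in the usual way. The 4 mice had 3005 to 7386 cells and 3299971 to 8856079 UMIs, 20151 cells in all. The label of each of the 9 types was checked against 5 markers. All 5 were highest in their own type, except that for tanycytes this held for 3 of 5, and the endothelial label also had the highest level of 4 of 5 markers of mural cells. Vascular leptomeningeal cells, with 68 cells, had under 20 cells in 3 of the mice and were left out of the tests. Sums of the other 8 types held between 44756 UMIs, in the microglia of mouse 4, and 2319177 UMIs, in the oligodendrocytes of mouse 3. Barcodes found in more than 1 mouse numbered 194 of 19954.

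Mouse 30 stood apart from the others beyond the genes studied here. In its oligodendrocytes the summed level of 12 inflammatory genes, among them the chemokine genes Ccl2, Ccl12 and Cxcl10, was 397 CPM, whereas the other mice had 28.7 to 40.7 CPM. In its microglia the same sum was 11467 CPM, against 1184 to 1506 CPM. The summed level of 5 erythrocyte markers was also higher, 551 CPM in oligodendrocytes against 92.8 to 154 CPM with 1 of the 5 at 0, but in microglia and committed precursors mouse 3 had more of them than mouse 30 (2458 against 1308 CPM and 451 against 354 CPM). Of the vascular leptomeningeal cells 44 of 68 came from mouse 30. The part of these in the values below was not tested. Some levels by type are given with and without mouse 30.

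Sgk1 encodes the serum- and glucocorticoid-induced kinase 1, which acts on ion channels, transporters and FOXO transcription factors. In oligodendrocytes it measured 225, 326, 1559.5 and 359.8 CPM in mice 3, 4, 30 and 34, from 521, 344, 758 and 664 UMIs. The value of mouse 30 was 5.14 times the mean of the other 3, which ranged from 225 to 359.8 CPM. It was the largest such ratio among the 2741 genes with a mean of at least 50 CPM in oligodendrocytes, which is what the choice of this gene rested on. The higher level was spread over many cells. With every cell thinned to 500 UMIs, Sgk1 was counted in 54.5% of the oligodendrocytes of mouse 30 (95% Clopper-Pearson interval for counting error, 49.9 to 59.1%), and in 10.3%, 14.9% and 15.3% of those of mice 3, 4 and 34. Unthinned, the shares were 74.8% in mouse 30 and 25.8%, 30.9% and 32.1% in mice 3, 4 and 34. In tanycytes, where Sgk1 was lowest, the thinned shares were 0.289% to 0.940%. Cells with 3 or more UMIs of Sgk1 made up 21.6% of the oligodendrocytes of mouse 30 and at most 2.05% of those of the others.

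**Figure D1:**
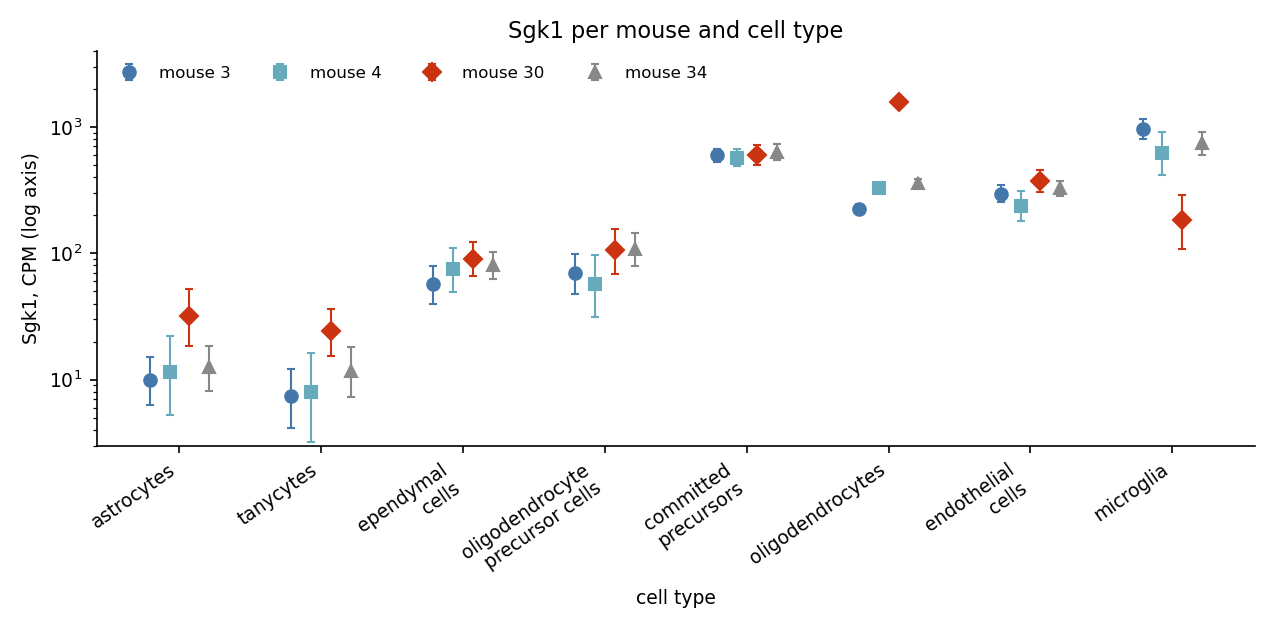
Sgk1 in CPM (log axis) in 8 cell types, with 1 point per mouse and bars for the 95% Clopper-Pearson interval of counting error. Mouse 30 lies far above the other mice in oligodendrocytes (1559.5 CPM) and below them in microglia (183 CPM), while the 4 mice lie together in committed precursors.

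The ratio of mouse 30 differed between the other types. Committed precursors, the stage between oligodendrocyte precursor cells and oligodendrocytes, held 594, 570.4, 603 and 634 CPM of Sgk1 in mice 3, 4, 30 and 34, so the 4 mice lay within 1 narrow band, and mouse 30 was at 1.01 times the mean of the others. In microglia the order was turned round. Mouse 30 had the lowest level, 183 CPM from 18 UMIs, against 967, 626 and 741 CPM in mice 3, 4 and 34, a ratio of 0.235. Of 2792 genes with a mean of at least 50 CPM in microglia, 10.4% were at or below 0.5 in mouse 30. In oligodendrocytes 0.328% of 2741 genes were. Endothelial cells held 296, 238, 376 and 327 CPM, and here the highest value, that of mouse 30, was 1.31 times the mean of the others.

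Astrocytes and tanycytes held little Sgk1, 9.97, 11.6, 32.0 and 12.5 CPM in astrocytes and 7.37, 7.94, 24.2 and 11.8 CPM in tanycytes of mice 3, 4, 30 and 34. Mouse 30 was highest in both, by 2.82 and 2.68 times, on 16 and 23 UMIs. Ependymal cells, which carry cilia and line the ventricle, measured 56.6 to 90.7 CPM and oligodendrocyte precursor cells 57.4 to 108 CPM, with mouse 30 at 1.28 and 1.35 times the mean of the others. In vascular leptomeningeal cells Sgk1 had 8 UMIs in mouse 30, 1 in mouse 4 and none in mice 3 and 34, where a count of 0 allows up to 536 and 239 CPM.

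Over the 4 mice the mean level of Sgk1 was 629 ± 330 CPM in microglia, 617 ± 631 in oligodendrocytes, 600.3 ± 26.3 in committed precursors, 309 ± 57.5 in endothelial cells, 85.4 ± 25.5 in oligodendrocyte precursor cells, 75.7 ± 14.3 in ependymal cells, 16.5 ± 10.4 in astrocytes and 12.8 ± 7.85 in tanycytes (SD, n = 4 for each). The highest and the lowest type differed 49.0-fold, and 86.2-fold without mouse 30. The first 3 types overlapped over the mice. Astrocytes and tanycytes overlapped too, though astrocytes were the higher of the pair in 4 of 4 mice. Without mouse 30, astrocytes were at 11.3 ± 1.28 CPM and tanycytes at 9.03 ± 2.39 CPM, microglia at 778 ± 173 CPM, committed precursors at 599 ± 32.1, oligodendrocytes at 303 ± 70.3 and endothelial cells at 287 ± 45.1 (SD, n = 3 for each), so that committed precursors then lay above oligodendrocytes with no overlap.

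The receptor gene Nr3c1 had the smallest range over types of the 7 genes. It was highest in oligodendrocyte precursor cells, at 140.1, 159.9, 149 and 147 CPM in mice 3, 4, 30 and 34, and lowest in ependymal cells, at 38.8, 43.3, 35.9 and 34.9 CPM, a 3.90-fold range over types. In oligodendrocytes it measured 143, 153, 132 and 134 CPM, and mouse 30, with the highest Sgk1, had the lowest Nr3c1 there, at 0.919 times the mean of the others. Its ratios in mouse 30 lay between 0.797 and 1.25 in all 8 types, and its SD between mice was below that of counting alone in all but tanycytes and endothelial cells, where it was 1.33 and 1.41 times as large.

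To compare types within the same mice, each type was set against the mean of the other 7 in edgeR, with mouse as a block, and a gene was called at an adjusted p (Benjamini-Hochberg) below 0.05 where its level also differed by more than 1 on the log2 scale. Of 10166 genes tested, 18.5% were called in astrocytes, 19.6% in tanycytes, 27.9% in ependymal cells, 17.3% in oligodendrocyte precursor cells, 28.5% in committed precursors, 23.2% in oligodendrocytes, 23.3% in endothelial cells and 19.8% in microglia. In the same order, 11.8%, 12.2%, 18%, 10.7%, 11.9%, 11.1%, 14.2% and 10.1% were called higher, and 6.69%, 7.42%, 9.89%, 6.63%, 16.6%, 12.1%, 9.08% and 9.72% lower. Of the 48 values of the 6 genes other than Sgk1, 21 were called, 9 higher and 12 lower, with 5 of 6 in committed precursors (all lower), 4 in ependymal cells, 3 each in endothelial cells and microglia (all higher), 2 each in astrocytes and oligodendrocytes and 1 each in tanycytes and oligodendrocyte precursor cells. How the types were assigned is not given in the sources used here, and since such labels are made from expression, these p-values describe the types and do not test them independently. In microglia the median log2 fold change of all genes was -0.36, which is the level against which the microglial values below should be read.

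Nr3c1 was called lower in ependymal cells, with a log2 fold change of -1.55 ± 0.15 (SE, adjusted p = 2.56e-14), and in committed precursors, by -1.17 ± 0.17 (adjusted p = 2.45e-08), both in 4 of 4 mice. In oligodendrocytes its log2 fold change was 0.89 ± 0.09 (adjusted p = 4.68e-14), under the fold limit. Over the 28 pairs of types, 19 differed for Nr3c1 at an adjusted p below 0.05 over all genes and pairs, a threshold that 44.5% of all gene and pair values passed. No difference passed between oligodendrocyte precursor cells and astrocytes, endothelial cells or microglia (adjusted p = 0.960, 0.392 and 0.722).

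Fkbp5 encodes a co-chaperone of the receptor and is among its most sensitive targets. In oligodendrocytes it measured 17.2, 17.0, 49.4 and 19.0 CPM in mice 3, 4, 30 and 34, on 40, 18, 24 and 35 UMIs. The 3 other mice lay within 2 CPM of each other, and mouse 30 was 2.78 times their mean. The same mouse was highest in every one of the 8 types, with ratios of 1.74 in astrocytes, 2.15 in tanycytes, 4.76 in ependymal cells, 1.49 in oligodendrocyte precursor cells, 1.91 in committed precursors, 3.71 in endothelial cells and 2.10 in microglia. In endothelial cells the values were 17.1, 13.0, 49.3 and 9.81 CPM. The endothelial sum of mouse 30 also held 372 CPM of 5 markers of vascular leptomeningeal cells, where the other mice had 130.0 to 156 CPM, and the part of those cells in the endothelial values of this and the other genes was not tested. In ependymal cells the values of Fkbp5 rested on 1, 2, 11 and 6 UMIs. The ratio in tanycytes fell to 1.87 without mouse 3 and that in microglia to 1.70 without mouse 34.

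Between types Fkbp5 was highest in microglia, at 61.5 ± 39.5 CPM (SD, n = 4), and lowest in ependymal cells and astrocytes, at 9.45 ± 9.47 and 9.55 ± 3.46 CPM. Without mouse 30 these levels were 48.2 ± 35.7, 4.87 ± 2.91 and 8.06 ± 2.15 CPM (SD, n = 3). It was called higher in microglia (log2 fold change 1.52 ± 0.38 SE, adjusted p = 0.00119) and lower in ependymal cells (-1.39 ± 0.30, adjusted p = 6.78e-05) and astrocytes (-1.06 ± 0.23, adjusted p = 5.86e-05), each in 4 of 4 mice. The fold change in astrocytes was -0.98 without mouse 4 and -0.89 without mouse 30, short of the fold limit. Oligodendrocytes stood at 0.51 ± 0.18 (adjusted p = 0.0151), also short of it. In vascular leptomeningeal cells Fkbp5 had 28 UMIs in mouse 30 and 0, 5 and 1 in mice 3, 4 and 34, which gave 333, 226 and 79.8 CPM in mice 30, 4 and 34. Of the 28 pairs of types 15 differed, and none of the pairs among oligodendrocytes, oligodendrocyte precursor cells, tanycytes and endothelial cells did.

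Tsc22d3 encodes GILZ, a leucine zipper protein known to mediate anti-inflammatory effects of glucocorticoids. In oligodendrocytes it measured 257, 193, 206 and 242 CPM in mice 3, 4, 30 and 34, so mouse 30 lay inside the range of the others. Its ratio there was 0.891. In 7 of the 8 types the ratio of mouse 30 was between 0.555 and 1.03, and microglia, at 360, 447, 233 and 455 CPM, had the lowest value in mouse 30. Endothelial cells were the exception, with 301, 295, 615 and 383 CPM and a ratio of 1.88. The markers of vascular leptomeningeal cells given above were higher in that sum. The mean in endothelial cells was 398 ± 149.7 CPM (SD, n = 4), and 326 ± 49.0 CPM without mouse 30 (SD, n = 3).

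Over types Tsc22d3 was highest in astrocytes, at 508 ± 79.4 CPM (SD, n = 4), where Sgk1 was next to lowest, and lowest in committed precursors, at 50.5 ± 9.96 CPM, where Sgk1 was near its highest. It was called higher in astrocytes (log2 fold change 1.34 ± 0.09 SE, adjusted p = 5.39e-22) and lower in committed precursors (-2.72 ± 0.19, adjusted p = 6.00e-20) and oligodendrocyte precursor cells (-1.66 ± 0.16, adjusted p = 5.07e-14), each in 4 of 4 mice. Oligodendrocytes were at 0.22 ± 0.10 (adjusted p = 0.0532) and were not called. Of the 28 pairs 21 differed, and none of the pairs among ependymal cells, endothelial cells and microglia did.

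Zbtb16 encodes PLZF, a zinc finger repressor known as a strong glucocorticoid target. It was counted rarely. In endothelial cells it measured 37.7, 21.7, 106 and 60.5 CPM in mice 3, 4, 30 and 34, and mouse 30, with the higher leptomeningeal markers, was 2.66 times the mean of the others. In oligodendrocytes, where the ratio of Sgk1 was largest, Zbtb16 measured 56.9, 28.4, 63.8 and 56.9 CPM, so mouse 30 exceeded mice 3 and 34 by little and the ratio was 1.35. Mouse 30 was nominally highest in all 8 types, though committed precursors held only 3 UMIs over all mice and microglia 7. In astrocytes, with 24.0 CPM against 7.71 to 15.5, its ratio was 2.17, and 1.89 without mouse 4.

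Endothelial cells and oligodendrocytes had the highest mean levels of Zbtb16, 56.5 ± 36.8 and 51.5 ± 15.7 CPM (SD, n = 4). Without mouse 30 their order turned, at 39.9 ± 19.5 and 47.4 ± 16.5 CPM (SD, n = 3). Microglia had 16.2 ± 17.6 CPM, and 8.11 ± 8.44 CPM without mouse 30. Endothelial cells and oligodendrocytes were called higher than the other types, with log2 fold changes of 2.17 ± 0.23 (SE, adjusted p = 1.05e-12) and 2.39 ± 0.17 (adjusted p = 1.90e-20), in 4 of 4 mice each, and the difference between them did not pass (log2 fold change 0.20, adjusted p = 0.450). Zbtb16 was called lower in committed precursors (-3.01 ± 0.57, adjusted p = 8.72e-06) and in ependymal cells (-1.16 ± 0.37, adjusted p = 0.00650). The call in ependymal cells was lost without mouse 30 (log2 fold change -1.01, adjusted p = 0.0625). Oligodendrocytes thus held more of both Sgk1 and Zbtb16 than the mean of the other types, whereas committed precursors, rich in Sgk1, held almost no Zbtb16.

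Per1 encodes a repressor of the circadian clock that is induced by glucocorticoids and by neuronal activity. In oligodendrocytes it measured 16.0, 16.1, 16.5 and 17.3 CPM in mice 3, 4, 30 and 34, a spread below that of counting alone, and the ratio of mouse 30 was 1.00. It was highest in mouse 30 in 3 of the 8 types, most clearly in oligodendrocyte precursor cells, at 17.5, 24.6, 50.9 and 20.6 CPM, with a ratio of 2.44 on 12 UMIs, and 1.91 among cells with at most 15% mitochondrial UMIs. In committed precursors mouse 34 stood at 2.40 times the others, on 6 UMIs. Between types Per1 was called higher in microglia (95.6 ± 38.0 CPM, log2 fold change 1.83 ± 0.30 SE, adjusted p = 7.83e-07) and endothelial cells (60.2 ± 8.38 CPM, 1.04 ± 0.19, adjusted p = 7.17e-06) and lower in committed precursors (12.2 ± 7.37 CPM, -1.91 ± 0.33, adjusted p = 1.73e-06). The endothelial value lay at the fold limit, and was 0.93 without mouse 3, 0.99 without mouse 4 and 0.99 in DESeq2. Of the 28 pairs of types 21 differed for Per1, and those between endothelial cells and ependymal cells or microglia did not pass.

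Cdkn1a encodes p21, an inhibitor of cyclin-dependent kinases that is induced by p53 as well as by glucocorticoids. In oligodendrocytes it measured 9.05, 9.47, 65.8 and 27.1 CPM in mice 3, 4, 30 and 34, on 21, 10, 32 and 50 UMIs. Mouse 30 was 4.33 times the mean of the others, the largest such ratio in that type among the 6 genes other than Sgk1, but mouse 34 also lay well above mice 3 and 4. It was counted in 3.17% of the thinned oligodendrocytes of mouse 30 and in 0.360%, 0.694% and 1.41% of those of mice 3, 4 and 34. In microglia, where mouse 30 had the lowest Sgk1, it had the highest Cdkn1a, with 307, 67.0, 659 and 152 CPM and a ratio of 3.76. Endothelial cells held 329, 191, 596 and 324 CPM, a ratio of 2.12, and of 1.83 without mouse 4. The leptomeningeal markers were higher in that sum too. Mouse 30 was highest in all 8 types.

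Cdkn1a varied 30.1-fold between types. Its mean was 359.8 ± 169.9 CPM in endothelial cells, 296 ± 262 in microglia and 27.9 ± 26.7 in oligodendrocytes (SD, n = 4). Without mouse 30 these were 281 ± 78.4, 175 ± 122 and 15.2 ± 10.3 CPM (SD, n = 3). It was called higher in endothelial cells (log2 fold change 3.00 ± 0.14 SE, adjusted p = 4.46e-30), microglia (2.69 ± 0.24, adjusted p = 2.89e-15) and ependymal cells (1.32 ± 0.16, adjusted p = 1.40e-10). It was called lower in committed precursors (-2.93 ± 0.38, adjusted p = 1.04e-09), oligodendrocytes (-1.36 ± 0.21, adjusted p = 1.11e-07) and tanycytes (-1.13 ± 0.20, adjusted p = 1.19e-06), all in 4 of 4 mice. With the sums thinned to the smallest total, the calls in oligodendrocytes and tanycytes were lost, with log2 fold changes of -0.80 and -1.23 (adjusted p = 0.415 and 0.185). Of the 28 pairs of types 22 differed, and that between endothelial cells and microglia did not pass (adjusted p = 0.313).

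**Figure D2:**
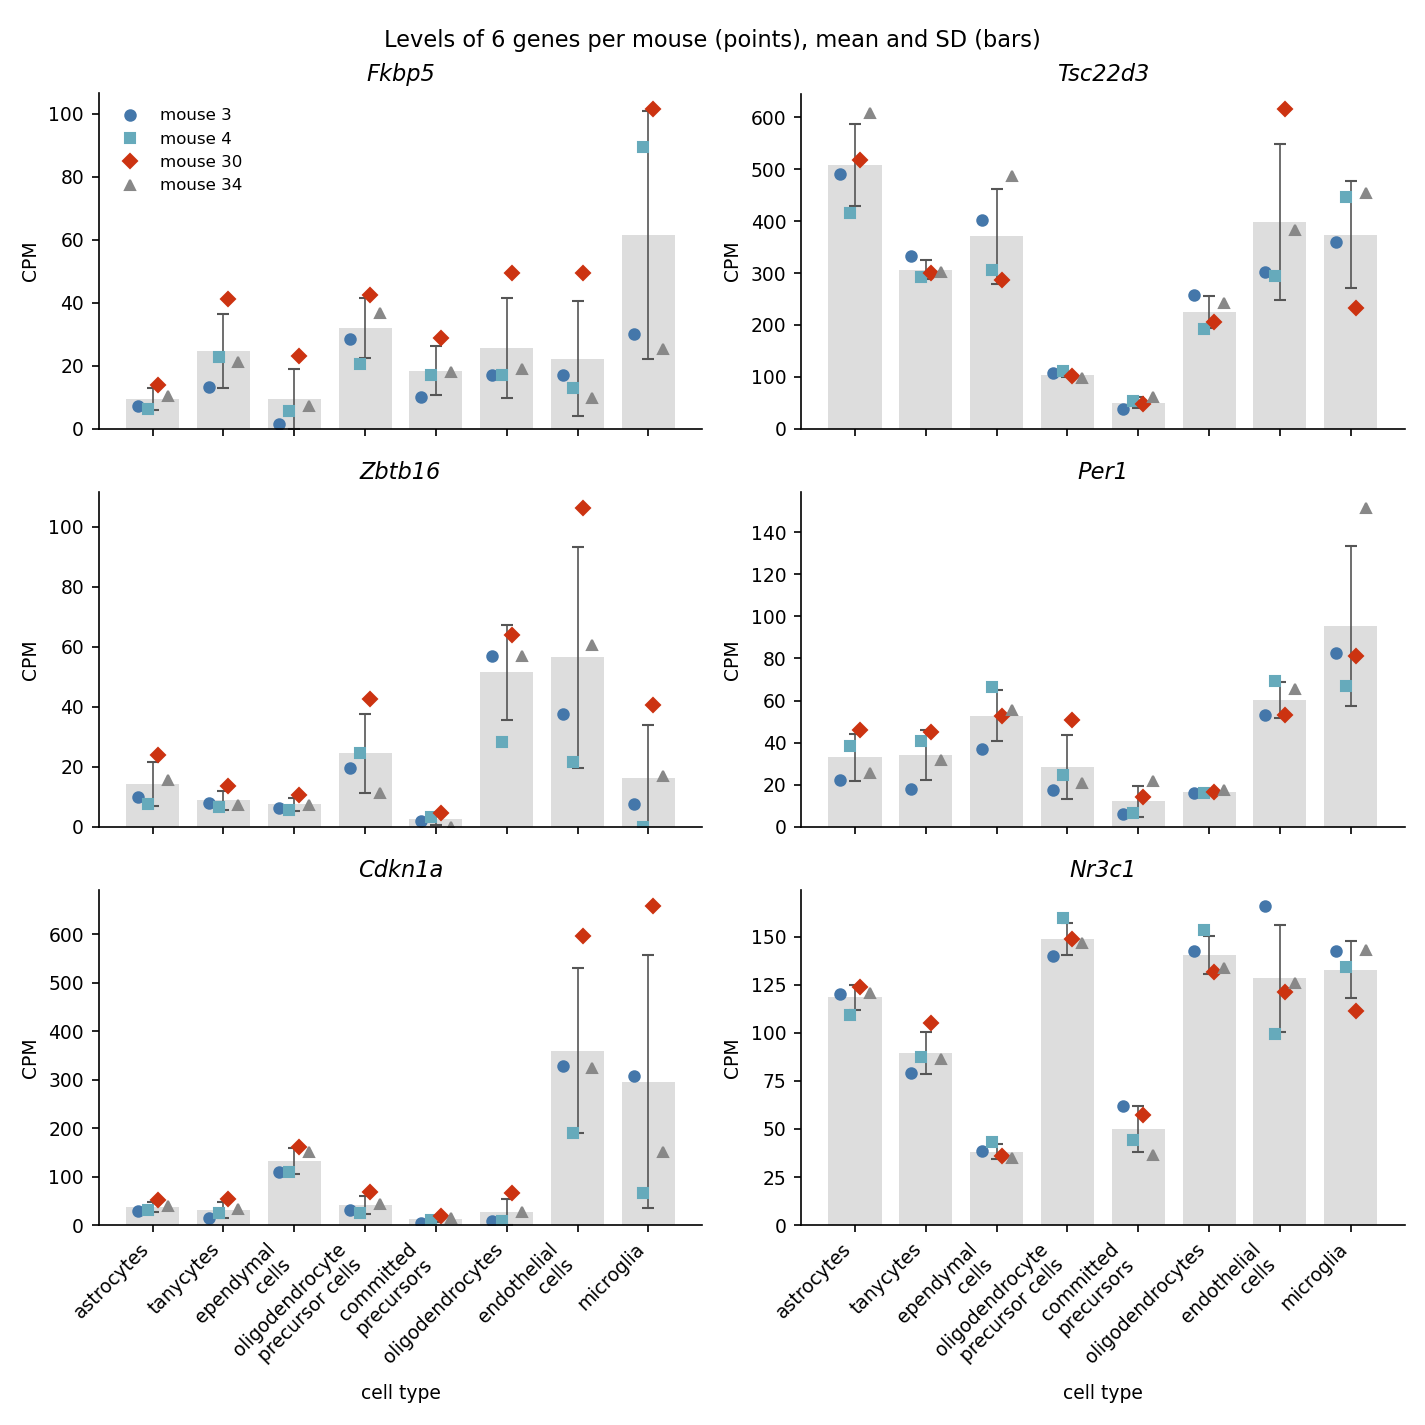
Levels in CPM (linear axes from 0) of the 6 genes other than Sgk1 in 8 cell types, with 1 point per mouse and grey bars and whiskers for the mean and SD over the 4 mice. Mouse 30 is the highest point in all 8 types for Fkbp5, Zbtb16 and Cdkn1a, and in 1 type for Tsc22d3.

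Whether the genes followed Sgk1 over cell types was described by the Spearman correlation of log2(CPM + 1) over the 8 types within each mouse. The types of a mouse share a library, and no p is given. The mean over the 4 mice was 0.37 ± 0.19 for Fkbp5, 0.26 ± 0.15 for Nr3c1, 0.07 ± 0.11 for Cdkn1a, 0.03 ± 0.33 for Zbtb16, -0.01 ± 0.14 for Per1 and -0.32 ± 0.22 for Tsc22d3 (SD, n = 4 mice). By this mean Fkbp5 was the gene whose order of types was most like that of Sgk1, with values from 0.19 in mouse 4 to 0.55 in mouse 30, and Tsc22d3 the least like it, from -0.48 in mouse 30 to 0 in mouse 4. That ranking did not hold in every mouse. In mouse 34 Nr3c1 (0.36) and Zbtb16 (0.24) lay above Fkbp5 (0.21), and in mouse 4 Zbtb16 (-0.36) lay below Tsc22d3. As a Pearson correlation the value of Nr3c1 was 0.04.

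Over all 32 sums, the 10 genes with a mean of at least 20 CPM whose log2(CPM + 1) was most like that of Sgk1 were Sh3glb1, Ubl3, Tpd52, Arpc5, Lhfpl2, Dusp7, Bzw1, Actb, Elmo1 and Tmsb4x, with Pearson correlations from 0.89 down to 0.79 among 7146 genes. Sh3glb1, which codes for the membrane-curving endophilin B1, came first. Its mean level was 207 CPM in committed precursors, 179.8 in oligodendrocytes and 213 in endothelial cells, and it was lowest in astrocytes (80.5) and tanycytes (69.9). Actb and Tmsb4x, which encode actin and an actin-binding peptide, were likewise lowest in astrocytes and tanycytes. Among the 7146 genes Fkbp5 ranked 798, Cdkn1a 1769, Zbtb16 2578, Nr3c1 2581, Per1 3067 and Tsc22d3 5603.

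Over mice, the mouse with the highest Sgk1 was mouse 30 in 5 of the 8 types, mouse 34 in oligodendrocyte precursor cells and committed precursors, and mouse 3 in microglia. Fkbp5, Zbtb16 and Cdkn1a were each highest in the same mouse as Sgk1 in 5 of 8 types, Per1 in 3, and Tsc22d3 and Nr3c1 in 2. Of all genes with a mean of at least 50 CPM in a type, the share highest in that mouse was 29.4% in astrocytes, 23.5% in tanycytes, 23.4% in ependymal cells, 20.9% in oligodendrocyte precursor cells, 25.6% in committed precursors, 28.2% in oligodendrocytes, 28.7% in endothelial cells and 22.5% in microglia. For Fkbp5, Zbtb16 and Cdkn1a the 5 types were those in which Sgk1 was highest in mouse 30, since these genes were highest in mouse 30 in all 8 types. Among genes with a mean of at least 10 CPM, a level chosen after seeing the data, the share highest in mouse 30 was, in the same order, 32.6%, 27.6%, 27%, 28.6%, 27.9%, 34.4%, 30.5% and 24.9%.

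Counted by size, 20 of the 56 gene and type values of the 7 genes were at or above 2-fold in mouse 30 over the mean of the other mice, against 0 in mouse 3, 0 in mouse 4 and 1 in mouse 34. Of the 20 values, 6 were of Cdkn1a, 5 each of Fkbp5 and Zbtb16, 3 of Sgk1 and 1 of Per1, and none were of Tsc22d3 or Nr3c1. The set was chosen on Sgk1 in this mouse, so the 20 values are a description, and many were low counts. The 6 genes other than Sgk1 had 17 of 48 values at or above 2-fold in mouse 30, and 0, 0 and 1 in mice 3, 4 and 34. Without a level filter these counts have no share over all genes beside them. They include values of mouse 30 on few UMIs, such as Zbtb16 in committed precursors (1 UMI) and in microglia (4 UMIs). Since a level filter on all 4 mice lets some values pass only through a high mouse, the mean of the other 3 mice was used for it, a choice made after seeing the data. With at least 10 CPM in the other mice, 13 of 41 values of the 6 genes were at or above 2-fold in mouse 30, where 3.44% of all gene and type values were. For mice 3, 4 and 34 the counts were 0 of 45, 0 of 45 and 0 of 43, beside 1.58%, 3.31% and 1.48% of all values. With at least 50 CPM in the other mice, 2 of 20 values were at or above 2-fold in mouse 30, those of Cdkn1a in endothelial cells and microglia, where 0.799% of all values were. Without mouse 4 the count was 1 of 19, and without mouse 34 it was 3 of 21. The values share cells and genes and are not independent of each other. In the other direction, at or below 0.5 with at least 10 CPM in the other mice, the 6 genes had 10 values in mouse 3, 8 in mouse 4, 0 in mouse 30 and 4 in mouse 34, beside 6.99%, 9.85%, 8.86% and 7.11% of all values. A high value in mouse 30 raises the mean that the other mice are set against. Sgk1 in microglia of mouse 30 was at 0.235.

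**Figure D3:**
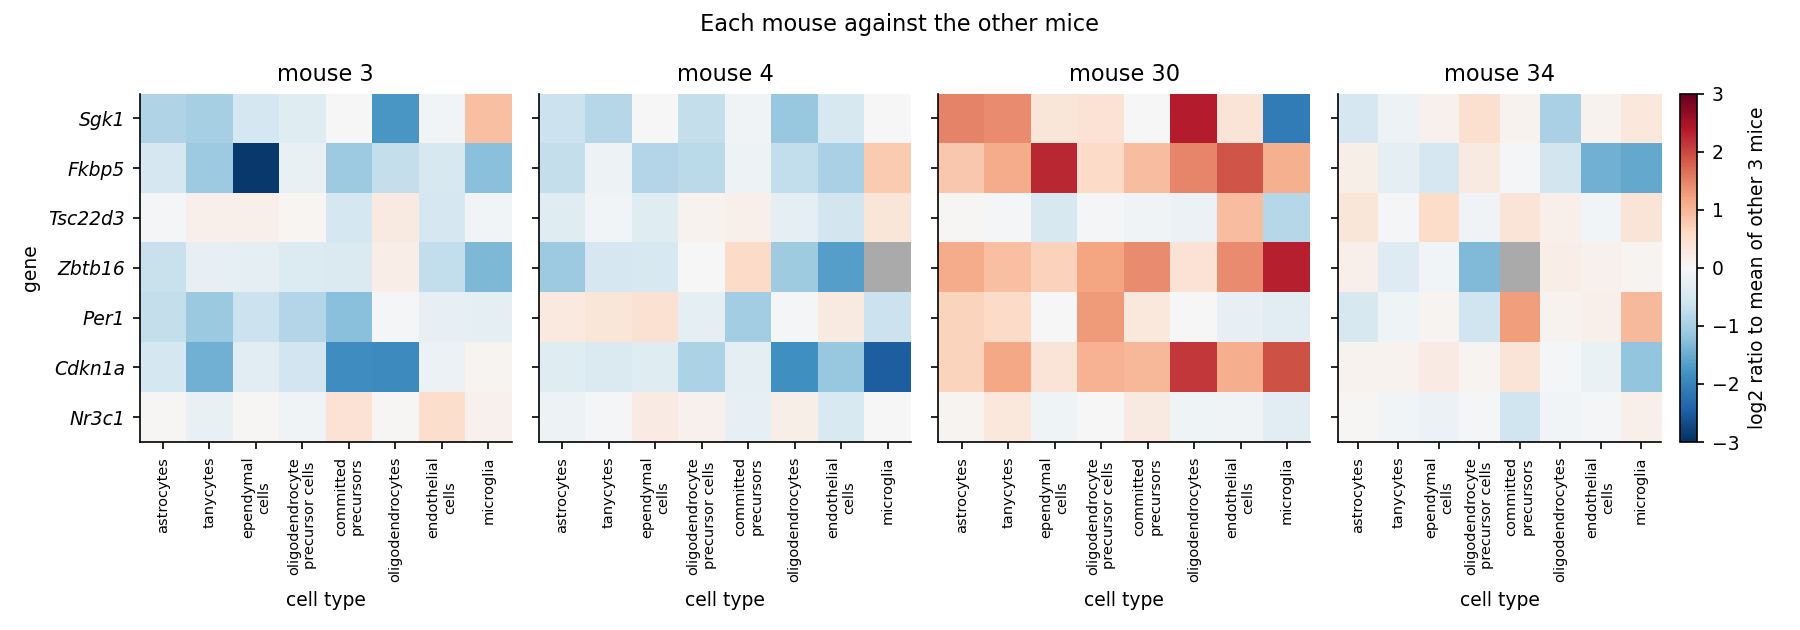
The log2 ratio of each mouse to the mean of the other 3 for the 7 genes in 8 cell types, as colour (red above, blue below, grey where the mouse had 0 UMIs). Mouse 30 is red in all 8 types for Fkbp5, Zbtb16 and Cdkn1a and pale for Tsc22d3 in all but endothelial cells, ependymal cells and microglia, and Sgk1 is red in its oligodendrocytes and blue in its microglia.

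**Figure D4:**
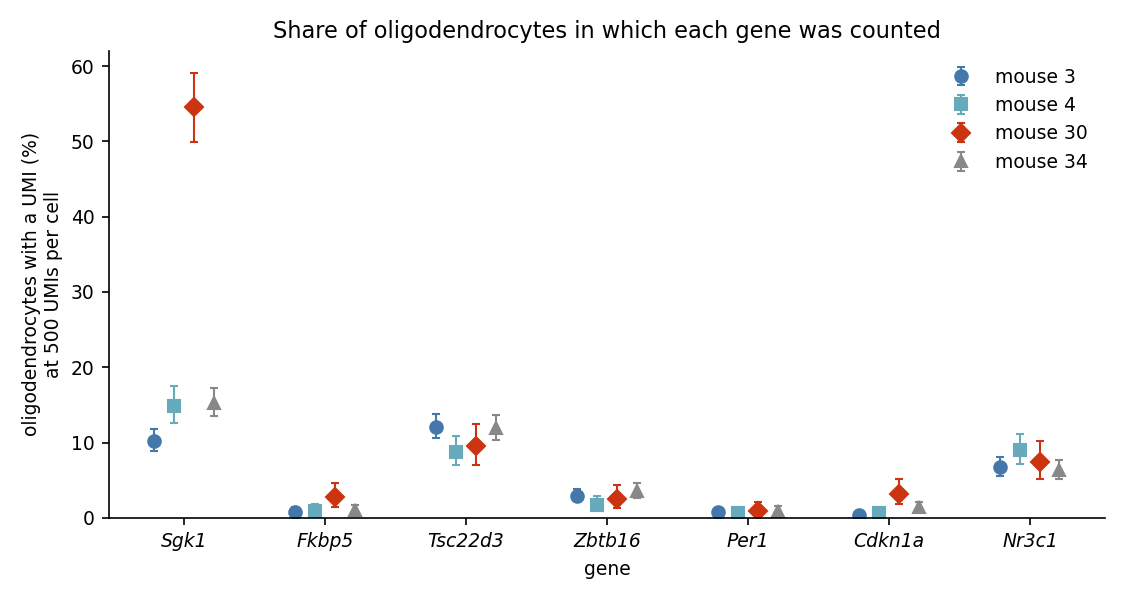
Percent of oligodendrocytes in which each of the 7 genes was counted at 500 UMIs per cell, with 1 point per mouse and 95% Clopper-Pearson intervals. Sgk1 was counted in 54.5% of the cells of mouse 30 and in at most 15.3% of those of the other mice, and no other gene of the 7 shows a gap of that size.

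The same was asked of a list of 26 further genes that glucocorticoids are known to induce. The list was chosen with earlier results of these data known, so its values are a description. Inflammatory genes were also higher in the oligodendrocytes of mouse 30, and their part in the values of the list was not tested. In oligodendrocytes 15 of them had a mean of at least 10 CPM in the other 3 mice, and 5 of the 15 were at or above 2-fold in mouse 30, where 1.85% of all genes at that level were. These were Nfkbia, which encodes the NF-kappa-B inhibitor IkB-alpha, at 36.2, 52.1, 163 and 43.4 CPM in mice 3, 4, 30 and 34, with a ratio of 3.70. Plin4, a lipid droplet coat gene, measured 31.0, 22.7, 119 and 64.5 CPM, and Arrdc2 measured 21.1, 34.1, 80.2 and 24.9 CPM, with ratios of 3.03 and 3.00. Ddit4, an inhibitor of mTOR signalling, was at 45.3, 75.8, 158 and 72.1 CPM and Klf9, a Krüppel-like transcription factor, at 125, 165, 339 and 143 CPM, with ratios of 2.46 and 2.35. Mouse 30 was the highest mouse for 11 of the 15 genes, where 32.4% of all genes at that level were highest in that mouse. The median ratio over the list was 1.40, against 1.00 over all 7786 genes. In astrocytes and tanycytes this median was 1.17 in each, against 1.00 and 0.99 over all genes. It was 1.26 against 0.96 in ependymal cells, 1.29 against 0.98 in oligodendrocyte precursor cells and 1.27 against 0.99 in endothelial cells. In microglia it was 1.29 against 0.88, and in committed precursors 0.95 against 0.96.

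**Figure D5:**
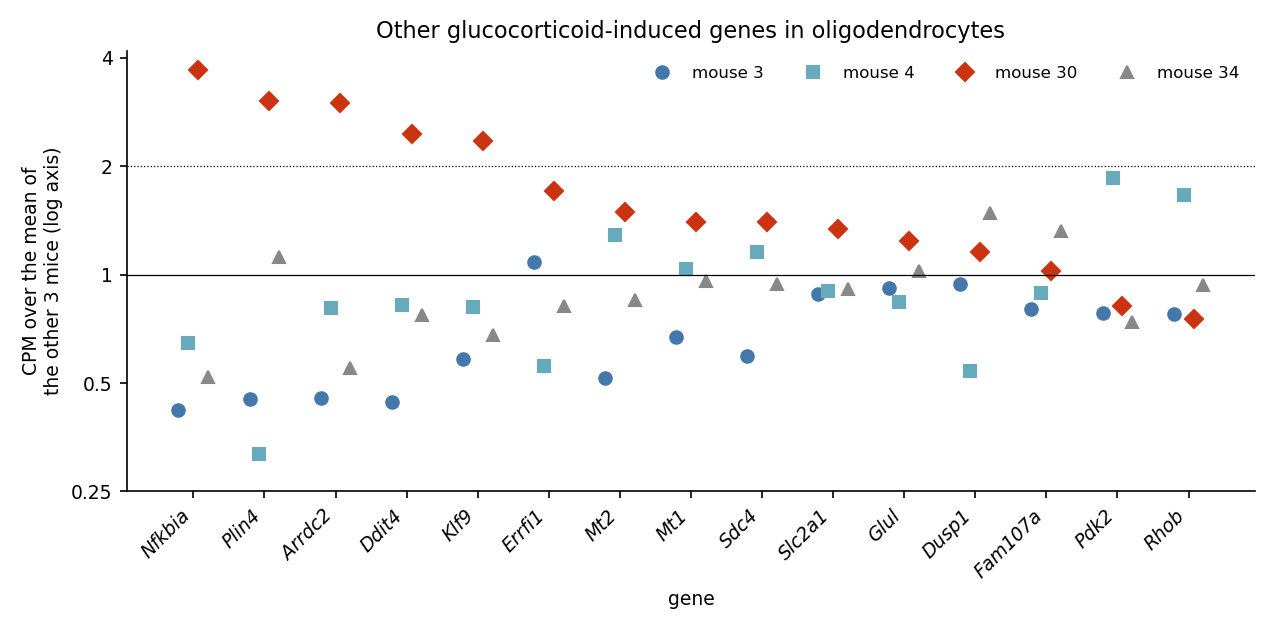
Ratio of each mouse to the mean of the other 3 (log axis) in oligodendrocytes for the 15 other glucocorticoid-induced genes with a mean of at least 10 CPM. The dotted line marks 2-fold, and mouse 30 lies above it for Nfkbia, Plin4, Arrdc2, Ddit4 and Klf9, while for Dusp1, Fam107a, Pdk2 and Rhob another mouse is highest.

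By the size of the ratio in oligodendrocytes, Sgk1 was followed among the 2741 genes at or above 50 CPM by the haemoglobin gene Hbb-bs (4.57), Nfkbia, the lactate dehydrogenase gene Ldha (3.27), Plin4, Ddit4, the transferrin receptor gene Tfrc (2.43), Klf9, Cnot3 (2.23), the mitophagy gene Bnip3 (2.22) and Phactr3 (2.18). These were all of the genes at or above 2-fold there, 0.401% of those at that level. The level is the mean of all 4 mice, and Nfkbia, Ldha, Plin4 and Tfrc reached it only through mouse 30, with 43.9, 35.9, 39.4 and 42.4 CPM on average in the others. With the level taken on the other 3 mice, the 7 genes at or above 2-fold were Sgk1, Hbb-bs, Ddit4, Klf9, Cnot3, Bnip3 and Phactr3, 0.256% of 2736 genes. Of the members, Nr3c1 then ranked 1702 and Tsc22d3 1894, and Fkbp5, Zbtb16, Per1 and Cdkn1a were below 50 CPM. Cnot3 was also high in mouse 4, at 206 CPM against 241 CPM in mouse 30.

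In the other types, with the same level in the other mice, the list of 26 genes had 5 of 20 genes at or above 2-fold in the endothelial cells of mouse 30, against 4.01% of all genes, 3 of 15 in oligodendrocyte precursor cells (3.49%), 3 of 15 in ependymal cells (3.22%), 4 of 16 in microglia (9.79%), 1 of 15 in tanycytes (0.985%), 1 of 19 in astrocytes (1.44%) and 0 of 14 in committed precursors (2.95%). Lcn2, which is also on the list of inflammatory genes, was below that level in endothelial cells, with 281 CPM in mouse 30 and no UMI in the other 3 mice. The list of receptor machinery (heat shock proteins, co-activators and co-repressors) had 2 of 16 genes at or above 2-fold in the microglia of mouse 30, 1 of 13 in its committed precursors and none in the other 6 types, with 0 of 13 in oligodendrocytes. The list of Sgk kinases with their substrates and regulators had 2 of 10 in oligodendrocyte precursor cells, Ndrg1 and Sgk3, and none in the other 7 types, with 0 of 11 in oligodendrocytes. The shares of all genes are those just given, and 1.85% in oligodendrocytes. Ndrg1, a known substrate of the kinase, measured 986, 724, 846 and 858 CPM in oligodendrocytes of mice 3, 4, 30 and 34. Of the inflammatory genes, 0 of 1 at that level was at or above 2-fold in oligodendrocytes of mouse 30, and 7 of 7 were in microglia. Ccl2, Ccl12 and Cxcl10, below that level in oligodendrocytes, measured 78.2, 70.0 and 74.1 CPM in mouse 30 and 2.95, 2.47 and 0.144 CPM on average in the others.

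Between types, 22 of the 26 other glucocorticoid-induced genes were tested. In astrocytes 11 were called higher and 4 lower, in endothelial cells 9 and 0, in microglia 7 and 2, in ependymal cells 7 and 6, in oligodendrocytes 6 and 3, and in tanycytes 4 and 3. In committed precursors 2 were called higher and 14 lower, and in oligodendrocyte precursor cells 0 and 9. The median log2 fold change was 1.13 in astrocytes and -1.91 in committed precursors, against -0.01 and -0.09 over all genes tested. Committed precursors, which held 570.4 to 634 CPM of Sgk1, were the type with the most of these genes lower. The genes with the largest changes were Map3k6 (log2 fold change 5.29 ± 0.44 SE) and the glucose transporter gene Slc2a1 (4.44 ± 0.08) in endothelial cells, Plin4 in oligodendrocytes (5.08 ± 0.28) and Nfkbia in microglia (4.27 ± 0.30), with edgeR adjusted p between 2.28e-53 and 1.71e-16.

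Of 20 genes of the receptor machinery, 15 were tested, and at most 3 were called higher and at most 3 lower in any type. Among those called were Abcb1a, which encodes a drug and steroid exporter, in endothelial cells (log2 fold change 7.60 ± 0.12 SE, edgeR adjusted p = 4.13e-57) and the chaperone gene Hsp90aa1 in ependymal cells (2.05 ± 0.06, adjusted p = 9.34e-41). Of the 12 Sgk kinases, substrates and regulators, 4 were called higher and 0 lower in oligodendrocytes. Sgk2 (5.86 ± 0.40, adjusted p = 3.39e-19) and Ndrg1 (4.50 ± 0.08, adjusted p = 4.52e-55) were higher there, Slc9a3r2 in endothelial cells (5.43 ± 0.12, adjusted p = 5.01e-49) and Rictor, a subunit of the complex that activates Sgk kinases, in committed precursors (2.68 ± 0.15, adjusted p = 9.95e-26).

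Per1 was set beside 15 other clock genes, of which 13 were tested. In microglia, where Per1 was called higher, 1 was called higher and 8 lower, and Nr1d1, which encodes the repressor REV-ERB-alpha, had a log2 fold change of -4.54 ± 0.79 (SE, adjusted p = 3.17e-06). In endothelial cells, where Per1 was also called higher, 5 were called higher and 1 lower. In committed precursors, where Per1 was called lower, 0 were called higher and 7 lower, among them Per2 (-2.96 ± 0.79, adjusted p = 0.00146), Dbp (-2.57 ± 0.33, adjusted p = 5.16e-10) and Bhlhe40 (-2.43 ± 0.40, adjusted p = 3.82e-07). With at least 10 CPM in the other mice, the clock list had 2 of 14 genes at or above 2-fold in oligodendrocyte precursor cells of mouse 30 (Cry1 and Per2), beside 3.49% of all genes, where Per1 itself was at 2.44. It had 1 of 10 in oligodendrocytes (Per3, beside 1.85%), 1 of 11 in committed precursors and 1 of 9 in microglia (Nr1d2 in both, beside 2.95% and 9.79%), and none in the other 4 types.

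Cdkn1a was set beside 13 other p53 targets, of which 10 were tested. In endothelial cells, where Cdkn1a was highest, 2 were called higher and 3 lower, in microglia 2 and 0, and in ependymal cells 5 and 0. The largest changes were in Btg2 in microglia (log2 fold change 4.31 ± 0.15 SE, adjusted p = 7.37e-36), Sesn1 in committed precursors (-2.75 ± 0.42, adjusted p = 9.88e-08), Phlda3 in oligodendrocytes (2.61 ± 0.17, adjusted p = 3.44e-22) and Bbc3 in astrocytes (-2.51 ± 0.51, adjusted p = 2.96e-05). With at least 10 CPM in the other mice, 1 of 9 p53 targets was at or above 2-fold in the oligodendrocytes of mouse 30 (Sesn1, beside 1.85% of all genes), 1 of 10 in oligodendrocyte precursor cells (Ccng1, beside 3.49%) and 1 of 8 in microglia (Aen, beside 9.79%), and none in the other 5 types.

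Tissue dissociation is known to induce immediate early genes, and these were counted by type as well. Of 14 immediate early and dissociation genes, all 14 were called higher in endothelial cells and in microglia, 13 lower in committed precursors and 12 lower in oligodendrocytes. Atf3 (log2 fold change 6.50 ± 0.20 SE), Zfp36 (5.08 ± 0.17) and Ier3 (4.36 ± 0.26) were higher in microglia and Socs3 lower in committed precursors (-4.83 ± 0.78), with adjusted p between 3.02e-40 and 3.03e-07. The part of dissociation in the levels of the members was not tested. Between mice, the summed level of these genes was lowest in mouse 30 in 4 types, at 9703 CPM in microglia against 13183 to 16107 CPM in the other mice, 8964 against 10580.2 to 12495 CPM in endothelial cells, 879 against 1122 to 2379 CPM in astrocytes and 574 against 577 to 764 CPM in oligodendrocytes. It lay within the range of the other mice in the remaining 4 types. Single genes were nonetheless higher in mouse 30. With at least 10 CPM in the other mice, 4 of 14 (Ier3, Junb, Socs3 and Zfp36) were at or above 2-fold in its ependymal cells, beside 3.22% of all genes, Ier3 was so in astrocytes (1 of 12, beside 1.44%) and tanycytes (1 of 14, beside 0.985%) and Socs3 in microglia (1 of 14, beside 9.79%), and none in the other 4 types. Of the inflammatory genes, 8 of 10 tested were called higher in microglia, with Ccl12 (7.14 ± 0.14), Ccl7 (5.78 ± 0.30) and Ccl2 (4.42 ± 0.42) the largest, and Cxcl1 was lower in committed precursors (-7.26 ± 1.47), with edgeR adjusted p between 1.24e-51 and 3.31e-05.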

How the data were processed

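Cells came from 10x 3' v2 libraries of hypothalamus dissociated with the Neural Tissue Dissociation Kit and sequenced on a NextSeq 500, and the submitters' processing notes name Cell Ranger 1.2 and Seurat. The deposited table held raw UMI counts per gene and cell with the authors' type labels. The authors also deposited the percent of mitochondrial UMIs and a doublet score between 0 and 1 (a fraction) for each cell, used for alternatives only. Its cells had at least 487 UMIs and 396 genes. Genes were read as 3' tags, so levels were not compared between genes. Columns of 12 other libraries in the table were not used. The members and gene lists were chosen with earlier results of these data known.

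Counts were summed per mouse and type (Python 3.11.15, pandas 2.3.3), and CPM were computed on the total of each sum. Each type with at least 20 cells in every mouse was compared with the mean of the others by edgeR 4.0.16 (quasi-likelihood F test, TMM, filterByExpr, mouse as a block, Benjamini-Hochberg adjustment over all genes, and over all genes and pairs for pairs of types). The same mouse gave every type, which is where the pairing comes from. DESeq2 1.42.0, no filter, no block, thinned sums and leaving out each mouse were alternatives. On simulated counts for oligodendrocytes against the other types, run on 9008 genes, 96.7% of 2-fold and 100% of 4-fold changes were recovered at an adjusted p below 0.05, and 47.8% and 100% also passed the fold limit of the calls. Of the genes below that adjusted p, 5.73% had not been changed. Unlike the data, the simulated counts held no other differences between types. Changed genes that the filter removed were left out of these percentages. Ratios of a mouse to the mean of the other 3 had no test, since there was 1 group. Intervals (Clopper-Pearson, 95%) and the limit for a count of 0 (3 UMIs) cover counting error only. Named genes were the members, the 10 most like Sgk1 over all sums, the 10 with the largest ratio of mouse 30 in oligodendrocytes, and up to 4 called genes with the largest change in each list. Some of the genes this rule names are not reported here. Genes named for their level of at least 10 CPM were chosen after their values were seen.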

Additional observations from a re-analysis of the deposited data

Results flagged for a closer look

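Of 63 values of a gene in a cell type, 5 (7.94%) had 1 mouse far from the other 3 by Dixon's criterion, where chance gives about 5%, and in all 5 that mouse was mouse 30, with the highest value. For Sgk1, on which the set was chosen, 2 of the 5 are a description, and without it 3 of 54 values (5.56%) remain. In the 8 types tested, the 6 genes other than Sgk1 had 2 of 48 such values (4.17%), against 8.22% over all 10165 genes tested other than Sgk1. Mouse 30 was the one apart and highest in both of these, and in 2.35% of the values of all those genes. Sgk1 stood at 1559.5 CPM in its oligodendrocytes, against 225 to 359.8 CPM in the others, and at 32.0 CPM in its astrocytes, against 9.97 to 12.5 CPM. Fkbp5 stood at 49.4 CPM in its oligodendrocytes, against 17.0 to 19.0 CPM. Zbtb16 stood at 13.7 CPM in its tanycytes, against 6.81 to 7.86 CPM, and at 35.6 CPM in its vascular leptomeningeal cells, from 3 UMIs, with no UMI in the other mice, which had 6 to 12 such cells. There a count of 0 allows 136 to 536 CPM, so the last value does not show a higher level in mouse 30. Inflammatory genes and erythrocyte markers were higher in the oligodendrocytes of the same mouse, and their part in these values was not tested.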

How the results depend on the processing

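With mouse as a replicate block or without it, the number of called genes differed little: without the block it was 1702 to 2831 over the 8 types, 0.965 to 1.00 times the number with it, and no call of a member changed. With DESeq2 it was 1791 to 3470, and without a filter 2388 to 3901, all within 1.5 times. With all sums thinned to the smallest total, fewer genes were called because fewer UMIs remained, at 286 in astrocytes, 258 in tanycytes, 339 in ependymal cells, 228 in oligodendrocyte precursor cells, 443 in committed precursors, 356 in oligodendrocytes, 347 in endothelial cells and 345 in microglia, against 1763 to 2897 in full. Leaving out each mouse gave 1718 to 2008, 1869 to 2156, 2671 to 3011, 1532 to 1806, 2513 to 2868, 2094 to 2440, 2203 to 2421 and 1576 to 1854 in the same order. Of 352 alternative values of the 48 member contrasts, 342 kept their direction and call, 8 lost the call, 2 gained it and 0 reversed. Those gained were Per1 in oligodendrocytes without mouse 3 (log2 fold change -1.02) and Tsc22d3 in thinned microglia (1.02). The cause of these changes was not tested.

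The 20 member values at or above 2-fold in mouse 30 became 15 to 21 on leaving out another mouse, and 5 at a mean of at least 50 CPM over all 4 mice, a level that some pass only through mouse 30. For mouse 3 the count of 0 became 1 against the median of the others and 1 to 1 on leaving out a mouse. For mouse 4 it became 1 without the 5% highest doublet scores, 1 against the median and 0 to 2 on leaving out a mouse. For mouse 34 the count of 1 became 2 with TMM totals, 2 at no more than 15% mitochondrial UMIs, 2 without high doublet scores, 3 without the 1% of cells with the most UMIs of the gene, 3 against the median, 0 at 50 CPM and 1 to 6 on leaving out a mouse, with 6 without mouse 30. Of 388 alternative ratios of mouse 30, 25 crossed 2-fold. The correlation of Nr3c1 with Sgk1 over types was 0.043 as a Pearson correlation of log2(CPM + 1) and 0.0543 of log2(CPM + 10). The smallest sum tested was the microglia of mouse 4, with 44756 UMIs.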
